A study of Mus musculus with 10 samples.

Results

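Transcripts of 47 genes that encode core spliceosome proteins and SR proteins were followed across normal marrow cells and 3 mouse models of acute myeloid leukemia (AML). The genes were chosen by name, out of 50600 gene entries, as 3 proteins of the U1 snRNP, 12 of the U2 snRNP and SF3 complexes, 3 factors that read the 3' splice site, 7 Sm ring proteins, 7 U5 snRNP proteins, 4 proteins of the U4/U6 and tri-snRNP particles, Prpf19 of the PRP19 complex, and 10 SR proteins. All 47 had counts in every library and all 47 passed the filter on low counts, so no member was lost.

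The study sequenced RNA from 10 mice, with 1 library per mouse, all labelled C57BL/6. WT cells were bone marrow cells of 2 female wild type mice, bead-selected for the cKit receptor, and the labels name no treatment. Cbfb::MYH11 tumors, which carry the fusion gene of inversion 16, came from the spleens of 2 female mice labelled Mx+; Hygr+, in which Mx1-Cre switches on a floxed Cbfb+/56M allele after Poly(I:C), given at postnatal day 45. Mx1-Cre answers to interferon and is not restricted to leukemia-initiating cells. The labels give cKit+ for tumor 27 and cKit_ for tumor 30. MLL::AF9 tumors came from the spleens of 3 untreated MLL-AF9 +/- mice, 1 female and 2 male. MLL::ENL tumors came from the spleens of 3 mice, 2 of them labelled female, that had been irradiated and given wild type stem and progenitor cells carrying an MLL::ENL retrovirus together with normal marrow. Cells of both MLL models were bead-selected for Mac1, Gr1 or cKit. Tissue, the way a tumor was made and the beads used go with the condition, so their parts in any difference cannot be told apart. The names of the MLL::AF9 libraries 42 and 47 are interchanged between labels and deposited files, which leaves the group of both unaffected.

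The spliceosome removes introns from pre-mRNA. The U1 snRNP recognises the 5' splice site, U2AF and the U2 snRNP with its SF3 proteins the 3' splice site and branch point, and the U4/U6.U5 tri-snRNP then joins and is rearranged into the catalytic machine. A ring of Sm proteins forms the core of the U1, U2, U4 and U5 particles. SR proteins bind exons through an RNA recognition domain and recruit these particles through stretches rich in arginine and serine. In human myeloid neoplasms SF3B1, SRSF2, U2AF1 and ZRSR2 are recurrently mutated, which is a change in protein and is not read by transcript levels.

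Library totals ran from 12134917 to 20510574 counts. The 47 genes together took between 0.452% (MLL::AF9 2) and 0.904% (Cbfb::MYH11 30) of all counts. In the WT libraries hemoglobin transcripts took 14.4% and 3.98% of counts, and the Kit level, 65.6 and 88.6 CPM, was below that of both Cbfb::MYH11 tumors (187 and 290 CPM). MLL::AF9 2 and MLL::ENL NO had the highest mitochondrial shares, 10.2% and 10.6%, and MLL::AF9 2 also held the most Cd3e (30.6 CPM), a marker of T cells. Itgam (Mac1), one of the MLL selection antigens, was 6.04 and 10.97 CPM in Cbfb::MYH11 and from 342 to 1004 in MLL tumors, and the part of this in their differences was not tested. In bulk RNA, fewer cells of a type and less RNA per cell cannot be told apart.

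Of the 47 genes, at most 1 passed the test in any comparison with WT, Txnl4a in MLL::ENL, and the intervals left room for differences in many others. Levels are CPM, counts scaled to the TMM-adjusted library total, differences come from edgeR's quasi-likelihood F-test over 14875 genes, and a gene was called at a Benjamini-Hochberg adjusted p under 0.05. With 1 library per mouse, p-values measure the spread between mice. In Cbfb::MYH11 tumors against WT, 0 members were called in either direction by edgeR, where 3.54% of all genes were called higher and 6.92% lower. At an unadjusted p under 0.05, 2 members were higher (Prpf8 and Snrnp200) and 0 lower, against 11.4% and 16% of all genes, while DESeq2 called 2 higher and limma-voom 0. In MLL::AF9 against WT, edgeR again called 0 members, against 0.807% of genes higher and 2.08% lower. Here 0 members were higher and 14 lower at the unadjusted threshold, against 12.3% and 12.2% of all genes, DESeq2 called 5 lower and limma-voom 1. In MLL::ENL against WT, Txnl4a alone was called, lower, against 0.551% of genes higher and 1.55% lower, and 1 member was higher and 5 lower at the unadjusted threshold (10.7% and 11.3% of genes). DESeq2 called 1 higher and 2 lower there, limma-voom 0 and 1. Over all 14875 genes DESeq2 called 2888 in Cbfb::MYH11, 2124 in MLL::AF9 and 1815 in MLL::ENL against WT, in either direction. In the same order limma-voom called 1581, 713 and 639.

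The median log2 fold change of the members was 0.11 in Cbfb::MYH11, -0.25 in MLL::AF9 and -0.03 in MLL::ENL against WT, beside -0.01, 0.08 and 0.02 over all genes tested. The MLL::AF9 median depended on single libraries, at -0.09 without MLL::AF9 2, -0.44 without 47 and -0.26 without 42. In those fits 10, 15 and 8 members passed the unadjusted threshold in MLL::AF9 against WT. Without WT 1 the median was -0.28 and without WT 2 -0.22. The direction of the group depends on the scale. By mean CPM, 30, 15 and 22 of the 47 members were higher than in WT in the 3 models, but by the deposited TPM, which is scaled to the sum over all transcripts per length, 47, 38 and 45 were. On that scale the median of all 14875 genes was itself shifted by 0.58, 0.72 and 0.64 log2 units above WT, and 34, 17 and 25 of the members lay above that median. The 95% interval of the difference lay within 1 log2 unit of 0 for 20, 21 and 18 of the members in the 3 comparisons with WT, so a change of up to 2-fold was bounded for fewer than 22 of the 47 in each. A list of 22 proliferation genes had in MLL::AF9 a median log2 fold change of -0.82 against WT, 21 of 22 negative, 12 past the unadjusted threshold and 2 called lower by edgeR. The median was -0.59 in MLL::ENL (19 negative, 0 called) and -0.32 in Cbfb::MYH11 (16 negative, 2 called lower). By summed TPM the list ran from 950 to 2792 in MLL::AF9, with 1576 and 2331 in WT. Its part in the members' differences was not tested.

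Among the tumors, 4 members passed the test. Against the 2 Cbfb::MYH11 tumors, the 6 MLL tumors had 4 members called lower (Txnl4a, Eftud2, Sf3b3 and Snrpf) and 0 higher by edgeR, where 12.4% of all genes were called lower and 13.2% higher. DESeq2 called 7 members lower and 0 higher, limma-voom 3 and 0, beside 5075 and 3584 of all 14875 genes in either direction. At the unadjusted threshold 9 members were lower and 0 higher, against 18.5% and 20.3% of genes. The members' median was -0.30 beside 0.08 over all genes, and 37 of the 47 had a negative log2 fold change. In 15 members all 6 MLL libraries lay below both Cbfb::MYH11 libraries (20.4% of all genes did so), and in 3, Sf3b1, Sf3b2 and Zrsr2, all 6 lay above (19.5% of genes). By TPM these counts were 4 (Sf3b3, Snrpb, Snrpf and Txnl4a) and 0, beside 15.7% and 16.2% of all genes. Both counts of calls among the members, 8.51% lower and 0 higher, lay below the shares over all genes. Between MLL::AF9 and MLL::ENL 0 members were called by edgeR, DESeq2 or limma-voom (0.0134% of genes higher, 0% lower), and 1 member, Snrpd1, was lower and 0 were higher at the unadjusted threshold (2.94% and 7.24% of genes). Over the 4 groups 2 members were called, Txnl4a and Snrpf, against 22.3% of genes, and 8 passed unadjusted, against 39.7%. The comparisons with WT share the 2 WT libraries. Neutrophil genes differed along with the tumor types. The summed TPM of 10 neutrophil genes was 175 and 572 in Cbfb::MYH11, from 11336 to 263633 in MLL tumors, and 167071 and 181656 in WT. By edgeR 9 of these 10 genes were called higher in MLL tumors than in Cbfb::MYH11 (median log2 fold change 7.87) and all 10 lower in Cbfb::MYH11 than in WT (-9.14), and their part in the members' differences was not tested.

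**Figure D1:**
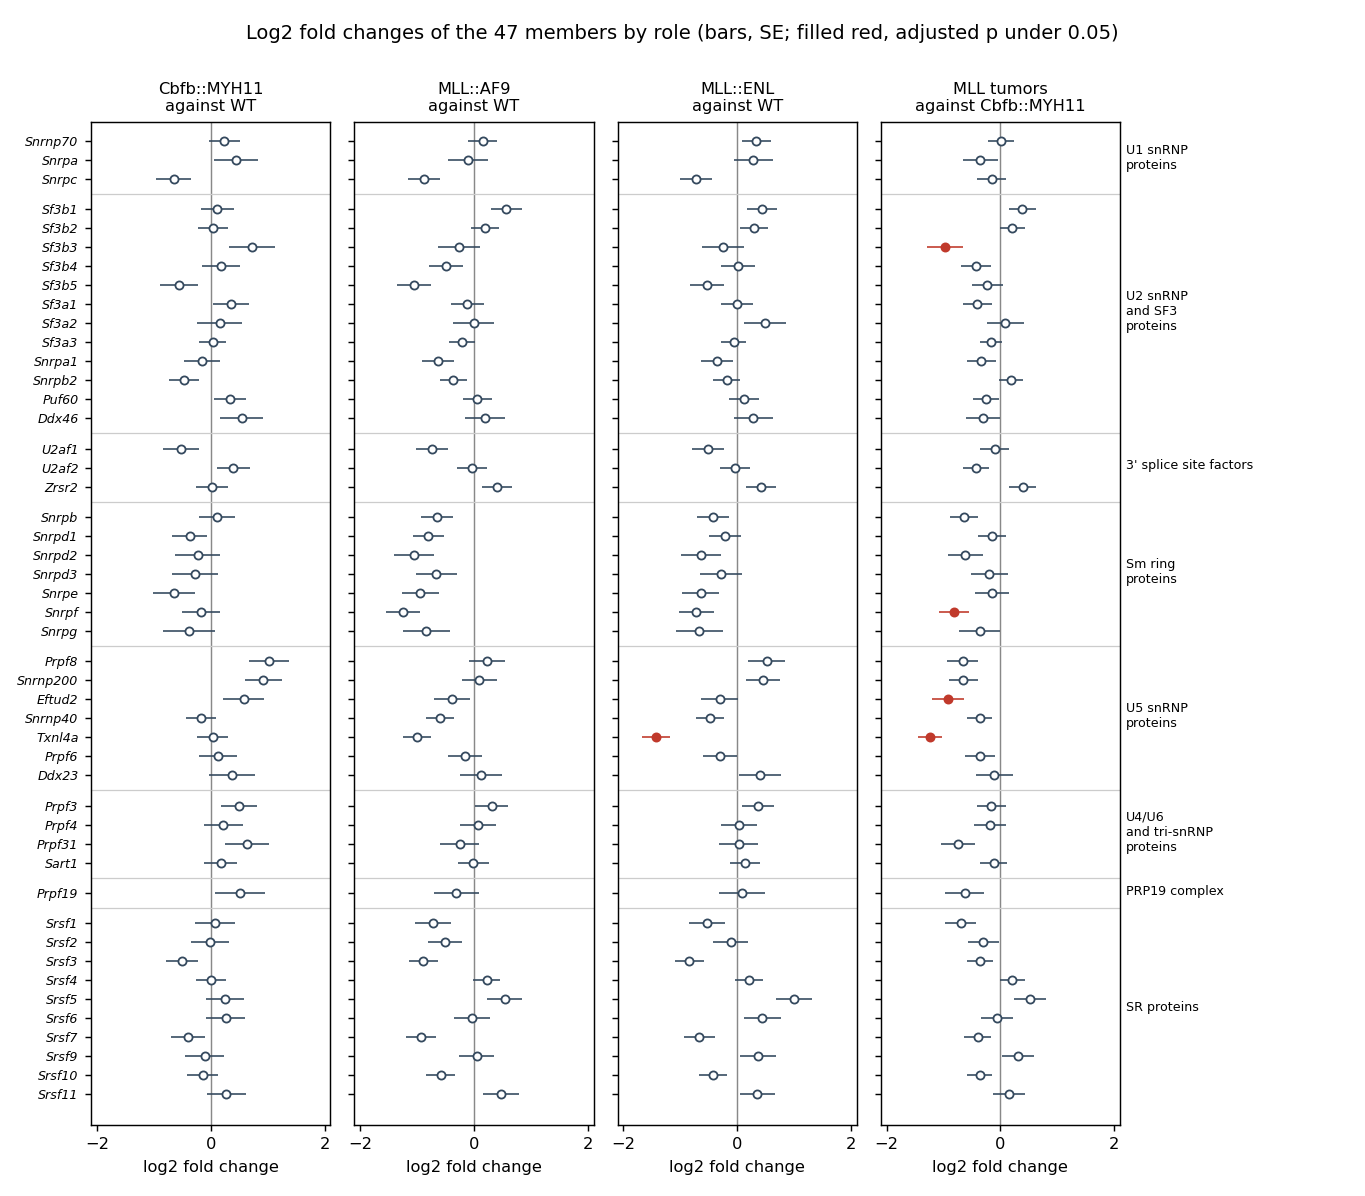
Log2 fold change (horizontal axis) of each of the 47 members, ordered by role, in 4 comparisons, with bars for the standard error and filled red points for an adjusted p under 0.05. The 5 red points are Txnl4a in MLL::ENL against WT and Txnl4a, Eftud2, Sf3b3 and Snrpf in MLL tumors against Cbfb::MYH11, all to the left of 0.

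Levels per transcript length (TPM) spanned a wide range within the machine. By the median over the 10 libraries, the Sm proteins Snrpb and Snrpe were highest at 416 and 367 TPM, followed by the SR protein Srsf2 at 273 TPM. The lowest were Zrsr2 at 17.8 TPM, Txnl4a at 15.1, Prpf3 at 14.9 and Prpf4 at 6.72 TPM. Most neighbours in this order overlapped across libraries: Snrpb ran from 206 to 608 TPM and Snrpe from 227 to 527 TPM. Genes of the Sm ring filled 4 of the 6 highest places (Snrpb, Snrpe, Snrpg and Snrpf), while Snrpd2, Snrpd1 and Snrpd3 took places 10, 13 and 14.

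**Figure D2:**
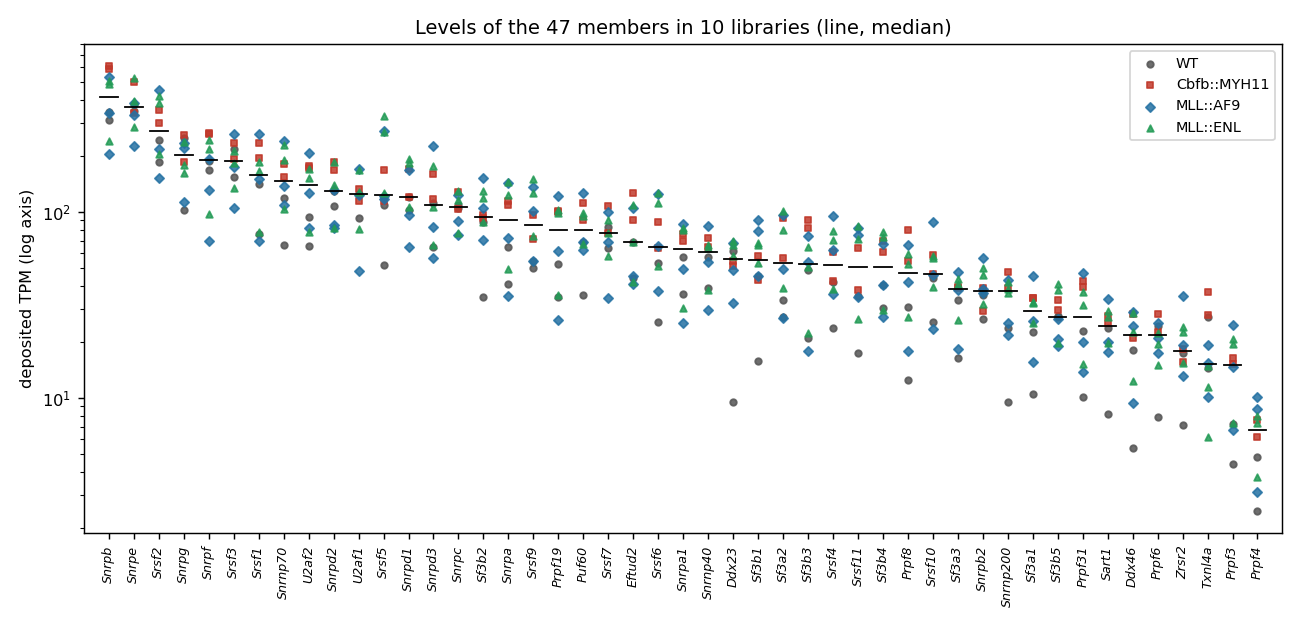
Deposited TPM (vertical log axis) of the 47 members in 10 libraries, 1 point per library coloured by group, ordered by the median over libraries (black line). Snrpb is at the left with a median of 416 TPM and Prpf4 at the right with 6.72 TPM, and neighbours overlap.

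Among the U5 snRNP proteins, Txnl4a (thioredoxin-like 4A, the mouse counterpart of yeast Dib1, a small protein of the tri-snRNP; mm10 chromosome 18, 80206795 to 80223533) separated the MLL tumors from all other libraries. Its level was 41.2 and 39.3 CPM in WT, 45.7 and 36.8 in Cbfb::MYH11, 20.7, 19.9 and 19.9 in MLL::AF9, and 12.4, 17.6 and 15.0 in MLL::ENL. By CPM every MLL tumor was below every other library, with no overlap, while by TPM WT 1 (14.5) lay among the MLL tumors (6.15 to 19.2) and WT 2 and both Cbfb::MYH11 tumors (27.1 to 37.1) above them. The pattern by CPM was one that 4 of the 47 members (8.51%) and 8.18% of all genes showed. The level in MLL tumors was 2.37-fold below Cbfb::MYH11 (log2 fold change -1.24, SE 0.21, edgeR adjusted p = 0.00249). It was 2.67-fold below WT in MLL::ENL (-1.42, SE 0.25, edgeR adjusted p = 0.0258) and 1.996-fold below WT in MLL::AF9, which did not pass (-0.997, SE 0.25, edgeR adjusted p = 0.0598). Between Cbfb::MYH11 and WT the difference was 0.04 (SE 0.27).

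Txnl4a shares exon bases with another entry, Gm16286, on the same strand (457 bases in GENCODE vM21), and its counts were fractional in all 10 libraries. RSEM divides reads that fit several entries between them. Gm16286 held several times more counts, with 216 and 167 CPM in WT, 195 and 260.2 in Cbfb::MYH11, 96.1, 135 and 111 in MLL::AF9, and 124, 144 and 137 in MLL::ENL. It too was lower in every MLL tumor than in every other library (log2 fold change against Cbfb::MYH11 -0.87, SE 0.22, edgeR adjusted p = 0.0170). With both entries summed, a sum chosen after seeing the data, the locus gave 257 and 207 CPM in WT, 241 and 297 in Cbfb::MYH11, 117, 155 and 131 in MLL::AF9 and 137, 162 and 152 in MLL::ENL. The summed level was called lower in MLL tumors than in Cbfb::MYH11 (-0.92, SE 0.21, edgeR adjusted p = 0.0106), but the difference between MLL::ENL and WT was not (-0.63, SE 0.24, edgeR adjusted p = 0.170). The MLL against Cbfb::MYH11 call on Txnl4a held in all 20 alternatives. The call against WT in MLL::ENL held in 14 of 20, and was lost without WT 1 (edgeR adjusted p = 0.200), WT 2 (0.105), or MLL::ENL NO (0.0524), RL (0.0684) or L (0.0915).

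Of the other U5 genes, Eftud2 was called. Eftud2 (the GTPase Snu114 of yeast; chromosome 11, 102838473 to 102880985) measured 132 and 160.2 CPM in WT, 199 and 237 in Cbfb::MYH11, and from 79.0 through a median of 116 to 154 in the 6 MLL tumors. The MLL and Cbfb::MYH11 libraries did not overlap by CPM but did by TPM, while the WT libraries lay among the MLL tumors or just above them. Eftud2 was 1.90-fold lower in MLL tumors than in Cbfb::MYH11 (-0.93, SE 0.28, edgeR adjusted p = 0.0355) and was called against WT in neither direction. Its call held in 16 of 20 alternatives and was lost without Cbfb::MYH11 30 (edgeR adjusted p = 0.102), Cbfb::MYH11 27 (0.245), MLL::AF9 42 (0.0667) or MLL::ENL RL (0.0544).

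Prpf8, the scaffold that holds the catalytic center, measured 186 and 249.6 CPM in WT, 503 and 388 in Cbfb::MYH11, and from 179 through 292 to 362 in MLL tumors. It was the member with the largest positive log2 fold change against WT in Cbfb::MYH11 (1.03, SE 0.35, unadjusted p = 0.0150, edgeR adjusted p = 0.0907) and did not pass, while DESeq2 called it (DESeq2 adjusted p = 0.0147). Snrnp200, the helicase that unwinds U4 from U6, was 97.8 and 175 CPM in WT, 269 and 249.6 in Cbfb::MYH11 and from 127 through 171 to 199.98 in MLL tumors. For Prpf8 and for Snrnp200 both Cbfb::MYH11 libraries lay above all 8 others by CPM. By TPM Cbfb::MYH11 27 (54.7 and 39.1) lay below MLL::AF9 47 (66.0 and 43.1) and MLL::ENL RL (59.7 and 41.7) for both genes. How many of all genes showed the CPM pattern was not counted. WT 1 was 0.42 log2 units below WT 2 for Prpf8 and 0.84 below for Snrnp200. Ddx23, the helicase that readies U6 for the 5' splice site, was 49.7 and 137 CPM in WT and from 92.5 to 130.5 in the 8 tumors, so WT 1 stood alone.

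**Figure D3:**
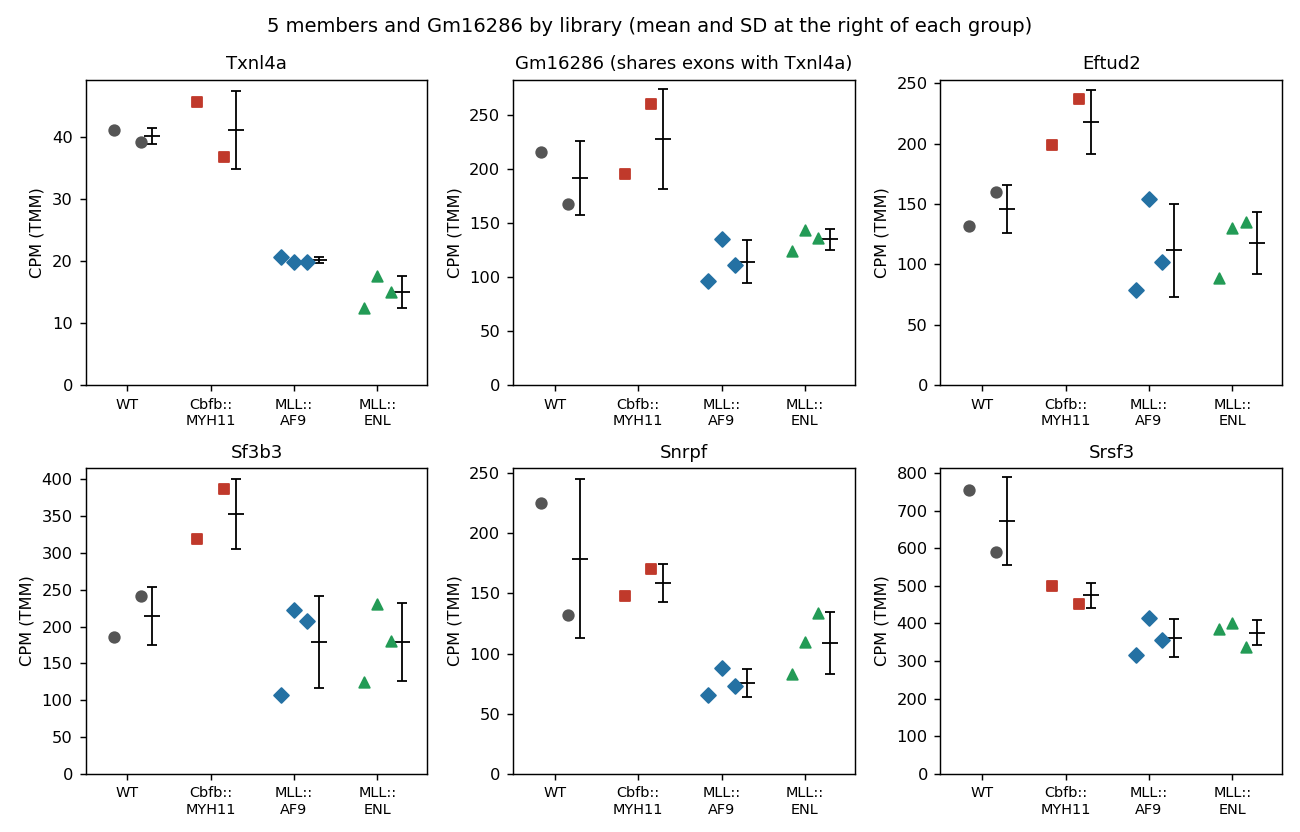
CPM (vertical axes from 0) of Txnl4a, Gm16286, Eftud2, Sf3b3, Snrpf and Srsf3 in each library by group, with the group mean and SD drawn to the right of the points. Txnl4a lies between 12.4 and 20.7 CPM in the 6 MLL tumors and between 36.8 and 45.7 CPM in the other 4 libraries.

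Of the 12 U2 snRNP and SF3 genes, Sf3b3 was called. The SF3B complex clamps the branch point, and Sf3b3 (chromosome 8, 110810239 to 110846787) encodes a large subunit of it. Sf3b3 measured 186 and 242 CPM in WT, 319 and 386 in Cbfb::MYH11, and from 107 through 194 to 231 in MLL tumors. It was 1.97-fold lower in MLL tumors than in Cbfb::MYH11 (-0.98, SE 0.32, edgeR adjusted p = 0.0467), with both Cbfb::MYH11 libraries above all 8 others. This call held in 11 of 20 alternatives. It was lost without WT 1 (edgeR adjusted p = 0.0618), WT 2 (0.0617), Cbfb::MYH11 30 (0.122) or 27 (0.286), MLL::AF9 42 (0.0594), or MLL::ENL NO (0.0644) or L (0.0772), and with the overlapping entries Cog4, Snord111 and Gm22193 added (0.0546) or only the groups compared in the fit (0.0540).

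No other subunit was called. Sf3b1, which holds the branch point adenosine, was 197 and 303 CPM in WT, 294 and 248 in Cbfb::MYH11, and from 316 through 356 to 400.3 in MLL tumors, above every other library by CPM but not by TPM. Its differences did not pass (MLL against Cbfb::MYH11 0.39, SE 0.24, edgeR adjusted p = 0.271). Sf3b5, the smallest SF3B subunit, was 209 and 115 CPM in WT, 112 and 109 in Cbfb::MYH11, and from 68.1 through 96.0 to 125 in MLL tumors. It had the lowest unadjusted p of this group in MLL::AF9 against WT (-1.05, SE 0.30, unadjusted p = 0.00616, edgeR adjusted p = 0.0845). Among the U2-specific proteins, Snrpa1 was 76.1 and 66.8 CPM in WT, 63.4 and 65.0 in Cbfb::MYH11 and from 36.1 through 51.4 to 64.7 in MLL tumors (MLL::AF9 against WT -0.63, SE 0.28, edgeR adjusted p = 0.209). Snrpb2, its partner on U2, was 84.2 and 55.96 CPM in WT, 50.6 and 51.0 in Cbfb::MYH11 and from 49.2 through 60.2 to 64.6 in MLL tumors. None of the 12 was called against WT by edgeR, while DESeq2 called Sf3b5 lower in MLL::AF9 (DESeq2 adjusted p = 0.0293), and their log2 fold changes against WT ran from -1.05 to 0.72 over the 3 models.

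The 3 factors that read the 3' splice site were called in no comparison. U2af1, which contacts the AG dinucleotide, was 134 and 94.8 CPM in WT, 79.5 and 79.6 in Cbfb::MYH11, and from 47.8 through 74.5 to 91.0 in MLL tumors. Every tumor was below both WT libraries, and the largest difference, in MLL::AF9, was -0.74 (SE 0.28, unadjusted p = 0.0264, edgeR adjusted p = 0.153). U2af2, its partner on the polypyrimidine tract, was 265 and 207 CPM in WT, 293 and 328 in Cbfb::MYH11 and from 188 through 223 to 271 in MLL tumors. Zrsr2, which serves the rarer U12-type introns, was 16.5 and 19.2 CPM in WT, 19.6 and 16.7 in Cbfb::MYH11 and from 19.8 through 24.0 to 27.1 in MLL tumors, above every other library by CPM but not by TPM (MLL against Cbfb::MYH11 0.39, SE 0.24, edgeR adjusted p = 0.258). Sf3b1 and Zrsr2 were the 2 members (4.26%) in which all 6 MLL libraries exceeded the other 4 by CPM, as in 5.66% of all genes.

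All 7 Sm ring genes had negative log2 fold changes by CPM in MLL::AF9 and MLL::ENL against WT, while by mean TPM 3 of the 7 were higher than WT in MLL::AF9 and all 7 in MLL::ENL. Snrpf was the Sm gene called against Cbfb::MYH11. Snrpf (chromosome 10, 93583029 to 93589706) measured 226 and 132 CPM in WT, 147 and 170.2 in Cbfb::MYH11, 65.1, 88.1 and 72.8 in MLL::AF9 and 82.8, 109.6 and 134 in MLL::ENL. It was 1.75-fold lower in MLL tumors than in Cbfb::MYH11 (-0.81, SE 0.26, edgeR adjusted p = 0.0483), and the 2 groups did not overlap. Against WT it was 2.37-fold lower in MLL::AF9, which did not pass (-1.25, SE 0.30, edgeR adjusted p = 0.0577). The call held in 10 of 20 alternatives and was lost without Cbfb::MYH11 30 (edgeR adjusted p = 0.129) or 27 (0.282), MLL::AF9 2 (0.0592) or 42 (0.0835), or MLL::ENL NO (0.0606) or RL (0.0835). It was also lost with upper quartile scaling (edgeR adjusted p = 0.0654), with no filter on low counts (0.0633), without both MLL::AF9 2 and MLL::ENL NO (0.0713) and in limma-voom (limma adjusted p = 0.0504).

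Snrpe was 229 and 99.3 CPM in WT, 111 and 99.3 in Cbfb::MYH11 and from 75.9 through 98.3 to 111 in MLL tumors. Snrpd1 was 133 and 81.3 CPM in WT, 90.9 and 75.1 in Cbfb::MYH11, 58.1, 74.5 and 51.4 in MLL::AF9 and 86.2, 88.4 and 102 in MLL::ENL. It was the single member that passed the unadjusted threshold between the MLL models (MLL::AF9 against MLL::ENL -0.59, SE 0.25, unadjusted p = 0.0414, edgeR adjusted p = 0.467). Snrpg was 283.9 and 94.1 CPM in WT, 132 and 158 in Cbfb::MYH11 and from 82.3 to 138 in MLL tumors, and Snrpb, the most abundant, was 429.7 and 281 CPM in WT, 380.3 and 387 in Cbfb::MYH11 and from 203 to 299 in MLL tumors. By CPM WT 1 was above WT 2 in every Sm gene, by 0.61 to 1.59 log2 units. By TPM WT 1 was below WT 2 in Snrpb (311 against 346), Snrpd1 (103 against 121) and Snrpf (168 against 188). In the other Sm genes it was above by TPM too. Without WT 1 the log2 fold change in MLL::ENL turned to 0.04 for Snrpe and 0.14 for Snrpd1.

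The 2 WT libraries differed by transcript length. Over all genes tested, WT 1 was above WT 2 by a median of 0.83 log2 units for 1981 genes with transcripts under 1000 bases, and below it by a median log2 difference of -0.53 for 2660 genes over 4000 bases. The members showed the same split, with a median of 0.74 for the 14 under 1500 bases and -0.52 for the 8 over 4000 bases. Single members departed from this, as Sf3b5 did with 3841 bases and a difference of 0.87, and Ddx23 with 2389 bases and a difference of -1.46. With a per-library trend on length removed, chosen after seeing the data, 9 members were called lower in MLL tumors than in Cbfb::MYH11 in place of 4, and 0 or 1 in each direction against WT. That fit called 4518 of all 14875 genes in either direction between these tumors, where the main fit called 1847 lower and 1959 higher. Against WT it called 1574 genes in Cbfb::MYH11, 443 in MLL::AF9 and 421 in MLL::ENL.

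**Figure D4:**
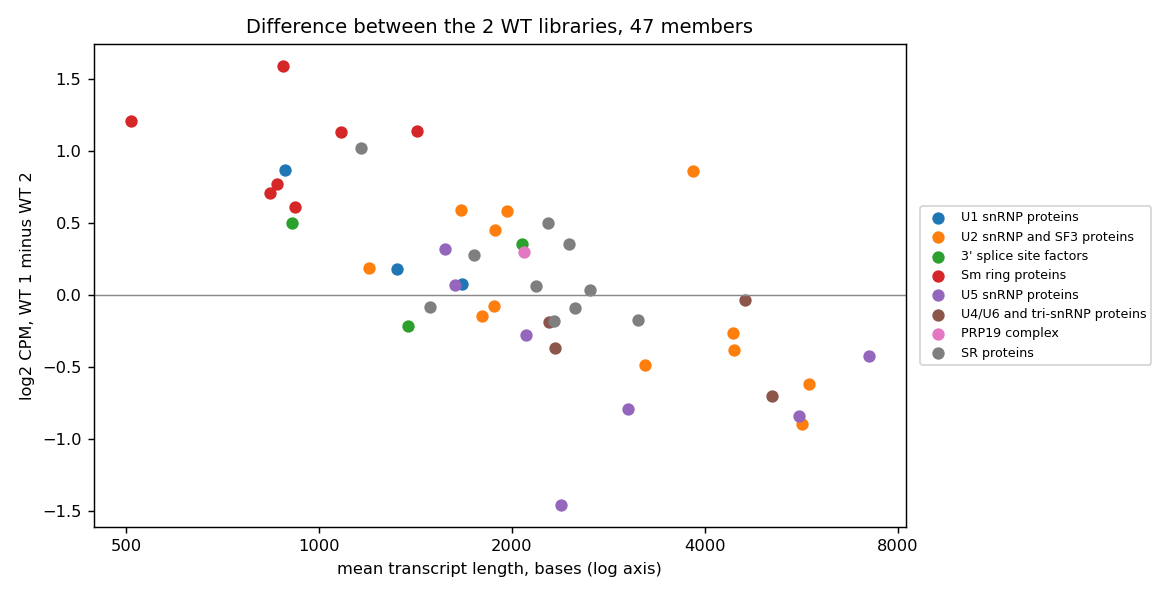
Log2 CPM of WT 1 minus WT 2 (vertical axis) against mean transcript length in bases (horizontal log axis) for the 47 members, coloured by role. The 14 members under 1500 bases have a median of 0.74 and the 8 over 4000 bases a median of -0.52.

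No U1 gene was called. Snrpc, which helps U1 grip the 5' splice site, was 144 and 79.0 CPM in WT, 73.4 and 69.0 in Cbfb::MYH11 and from 51.4 through 67.2 to 72.2 in MLL tumors. By CPM each of the 8 tumors was below both WT libraries, by -0.65 (SE 0.31) in Cbfb::MYH11, -0.88 (SE 0.28) in MLL::AF9 and -0.73 (SE 0.28) in MLL::ENL, with edgeR adjusted p = 0.212, 0.106 and 0.169. By TPM they overlapped, at 105 and 109 in WT and from 74.7 to 129 in tumors. How many of all genes were below WT by CPM in every tumor was not counted. The U1 proteins Snrnp70 and Snrpa had log2 fold changes against WT from -0.11 to 0.44.

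The 4 U4/U6 and tri-snRNP genes and Prpf19 were not called by edgeR over all libraries. Prpf31, which binds U4 and when mutated in humans causes retinal degeneration, was 47.9 and 61.7 CPM in WT, 77.0 and 93.5 in Cbfb::MYH11, and from 31.5 through 53.1 to 64.6 in MLL tumors (MLL against Cbfb::MYH11 -0.75, SE 0.30, unadjusted p = 0.0314, edgeR adjusted p = 0.0932). It was called in that comparison with the length trend removed (edgeR adjusted p = 0.0315) and without MLL::AF9 47 (0.0353). Prpf3, another U4/U6 protein, was 19.8 and 22.6 CPM in WT, 32.0 and 27.8 in Cbfb::MYH11 and from 18.7 through 27.4 to 31.6 in MLL tumors. Prpf19, the ubiquitin ligase that gives its complex its name, was 144 and 117 CPM in WT, 173 and 200.3 in Cbfb::MYH11 and from 60.7 through 127 to 163 in MLL tumors. The tumor types did not overlap by CPM but did by TPM (-0.63, SE 0.34, edgeR adjusted p = 0.204). The lowest MLL library for Prpf31 and Prpf19 was MLL::AF9 2, which also had the lowest summed TPM of 22 proliferation genes, 950 against 1638 to 2792 in the other MLL tumors. Whether that library's makeup played a part was not tested, and without MLL::AF9 2 and MLL::ENL NO, chosen after seeing the data, 3 members were called lower in MLL tumors than in Cbfb::MYH11. In that fit and comparison 4093 of 14467 genes were called in either direction.

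Of the 10 SR genes, none was called by edgeR, and they did not share a direction. DESeq2 called Srsf3 lower in MLL::AF9 (DESeq2 adjusted p = 0.00207) and MLL::ENL (0.00360), Srsf7 lower in MLL::AF9 (0.0131) and Srsf5 higher in MLL::ENL (0.0215), each against WT. Srsf3, the smallest family member, was 754 and 590.1 CPM in WT, 498 and 450.5 in Cbfb::MYH11, 315, 415 and 355 in MLL::AF9 and 386, 401 and 338 in MLL::ENL. By CPM the order WT, Cbfb::MYH11, MLL held without overlap. By TPM the groups overlapped, at 155 and 219 in WT, 236 and 193 in Cbfb::MYH11 and from 105 to 262 in MLL tumors. The differences from WT in MLL::AF9 (-0.89, SE 0.26) and MLL::ENL (-0.84, SE 0.26) had edgeR adjusted p = 0.0832 and 0.104. Srsf7, a close relative of Srsf3, was 279 and 197 CPM in WT, 201 and 159.7 in Cbfb::MYH11, and from 101 through 139 to 160.4 in MLL tumors (MLL::AF9 against WT -0.92, SE 0.27, edgeR adjusted p = 0.0847). Srsf1 and Srsf10 were, like Srsf3, lower by CPM in all 6 MLL tumors than in the other 4 libraries, as were 8.18% of all genes. By TPM this held for none of them.

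Srsf5 moved the other way. It was 137 and 145 CPM in WT, 192 and 143 in Cbfb::MYH11, 228, 246 and 142 in MLL::AF9 and 221, 316 and 305 in MLL::ENL. Its log2 fold change against WT in MLL::ENL, 0.99 (SE 0.32), was the largest positive one of that comparison among the members and did not pass (unadjusted p = 0.0108, edgeR adjusted p = 0.115). Srsf2 was 563 and 464 CPM in WT, 518 and 503 in Cbfb::MYH11 and from 289 through 442 to 529 in MLL tumors, so its groups overlapped.

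Promoters were read for 37 of the 47 members from RefSeq (GRCm38.p6), 250 bases before to 50 after each start, and searched on both strands. Their median GC content was 59.3%, beside 52.8% over 27025 genes. CCGGAAGT, a core letter string of ETS factors, was found in 8 of the 37 members (21.6%) and in 4.31% of all genes. GGGCGG, read by SP1, was found in 64.9% and 38.2%, GCATGCGC (NRF1) in 8.11% and 3.05%, and AAGATGGCG (YY1) in 2.70% and 1.64%. CCAAT (NFY) was found in 35.1% of members and 41.1% of all genes, CACGTG (E-box) in 5.41% and 8.09%, and TATAAA in 10.8% and 15.7%. These are matches of letters only.
The promoters of Sf3b3 and Snrpf are shown as those of called members, and those of Srsf3 and Srsf5 as SR genes at opposite ends of the SR genes in MLL::ENL against WT. Each runs 5' to 3' on its gene's strand, with the searched strings or their reverse complements in capitals.
Sf3b3, chr8:110846754-110847053, minus strand: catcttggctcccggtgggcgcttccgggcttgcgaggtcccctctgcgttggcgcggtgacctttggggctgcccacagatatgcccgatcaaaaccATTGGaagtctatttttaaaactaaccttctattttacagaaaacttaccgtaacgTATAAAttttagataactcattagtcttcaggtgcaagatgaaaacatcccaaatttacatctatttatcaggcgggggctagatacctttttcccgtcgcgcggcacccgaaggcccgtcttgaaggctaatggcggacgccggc
Snrpf, chr10:93589609-93589908, minus strand: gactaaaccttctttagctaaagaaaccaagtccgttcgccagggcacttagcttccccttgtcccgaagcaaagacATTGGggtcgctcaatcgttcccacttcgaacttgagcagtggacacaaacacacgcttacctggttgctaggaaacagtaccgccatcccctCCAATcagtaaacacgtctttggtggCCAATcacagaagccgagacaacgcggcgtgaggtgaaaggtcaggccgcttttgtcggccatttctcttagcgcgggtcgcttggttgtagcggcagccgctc
Srsf3, chr17:29032410-29032709, plus strand: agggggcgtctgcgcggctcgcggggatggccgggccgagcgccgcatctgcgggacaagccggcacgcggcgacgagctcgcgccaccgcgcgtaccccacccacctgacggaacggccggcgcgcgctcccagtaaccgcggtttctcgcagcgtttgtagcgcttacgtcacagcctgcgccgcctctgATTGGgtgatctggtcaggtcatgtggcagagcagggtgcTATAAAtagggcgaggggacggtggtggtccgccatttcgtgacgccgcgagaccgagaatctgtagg
Srsf5, chr12:80945249-80945548, plus strand: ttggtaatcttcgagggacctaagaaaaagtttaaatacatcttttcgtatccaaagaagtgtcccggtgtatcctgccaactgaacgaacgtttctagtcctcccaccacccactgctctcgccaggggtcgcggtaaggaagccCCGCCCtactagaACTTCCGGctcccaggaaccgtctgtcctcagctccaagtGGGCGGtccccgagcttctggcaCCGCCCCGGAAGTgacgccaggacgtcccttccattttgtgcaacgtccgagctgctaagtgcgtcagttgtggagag
Sf3b3, Snrpf and Srsf3 hold CCAAT or its reverse, with 3 copies in Snrpf. Srsf5 holds 2 copies of CCGGAAGT and 3 of GGGCGG, and 1 of each shares letters with the other.

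RSEM also gives each gene an average transcript length, weighted by the abundance of its isoforms, which shifts when isoform use shifts. Of the members, 39 could be tested with limma on this length among 8001 genes, and 1 was called. Sf3a2, a subunit of the SF3A complex of the U2 particle (chromosome 10, 80798198 to 80804924), had a weighted length of 2101 and 2066 bases in WT, 1654 and 1603 in Cbfb::MYH11, 1997, 1942 and 2075 in MLL::AF9, and 1981, 2054 and 2143 in MLL::ENL. Both Cbfb::MYH11 tumors were shorter than all 8 other libraries. MLL tumors were longer than Cbfb::MYH11 by 0.32 log2 units (SE 0.04, limma adjusted p = 0.0376), where 0.137% of all genes were called. Cbfb::MYH11 against WT gave -0.36 (SE 0.04, limma adjusted p = 0.0803). The call was lost whenever any 1 library was left out (limma adjusted p = 0.05001 to 0.122), with the ratio between 0.30 and 0.34. GENCODE vM21 lists Sf3a2 isoforms of 2213 and 781 bases with 9 exons each, a fragment of 373 bases and a retained intron form of 727 bases, and the deposited gene values do not say which isoform changed. The total level of Sf3a2 was 108 and 71.9 CPM in WT, 121 and 79.4 in Cbfb::MYH11 and from 68.1 through 104 to 166 in MLL tumors, with overlap. Its exons share 429 bases with Plekhj1 on the opposite strand and its counts were fractional in all 10 libraries.

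For Txnl4a the weighted length was 1570 and 1488 bases in WT, 1585 and 1525 in Cbfb::MYH11, 1649, 1682 and 1657 in MLL::AF9 and 1756, 1660 and 1756 in MLL::ENL. All 6 MLL tumors were above the other 4 libraries, and the test did not pass (MLL against Cbfb::MYH11 0.12, SE 0.03, limma adjusted p = 0.389). The length of Srsf6 was 3477 and 3406 bases in WT, 3310 and 3292 in Cbfb::MYH11 and from 2733 to 3126 in MLL tumors, below every other library (MLL::AF9 against WT -0.24, SE 0.05, limma adjusted p = 0.266). Srsf4 ran from 2135 to 2233 bases over all 10 libraries. In the other comparisons limma called the length of 0 members. There 0.0375% of all genes were called in Cbfb::MYH11, 0.05% in MLL::AF9 and 0.025% in MLL::ENL against WT, 0% between the MLL models and 0.0625% over the 4 groups. At an unadjusted p under 0.05, lengths of 2, 8, 8, 3 and 7 of the 39 members differed in these 5 comparisons, as did those of 7.61%, 9.10%, 9.09%, 4.77% and 8.70% of all genes tested. Length was tested with limma alone.

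**Figure D5:**
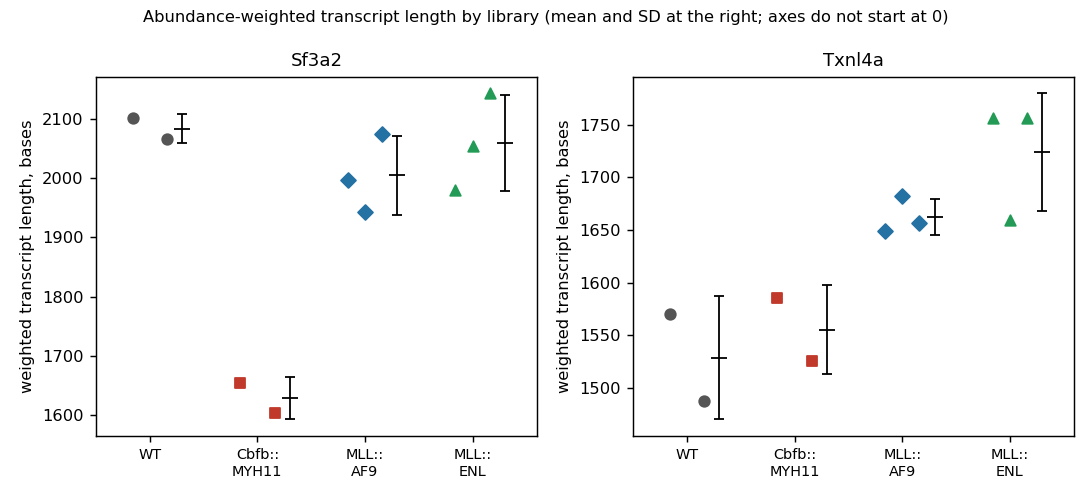
Abundance-weighted transcript length in bases (vertical axes, not from 0) of Sf3a2 and Txnl4a in each library by group, with mean and SD at the right of the points. Sf3a2 is at 1654 and 1603 bases in Cbfb::MYH11 and between 1942 and 2143 bases elsewhere.

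Around these 47 genes, 150 other splicing genes were listed by role and 146 were tested: LSm proteins, PRP19 and catalytic factors, helicases, hnRNP proteins, SR-related proteins and SR kinases, the exon junction complex, the minor spliceosome, snRNP assembly factors and alternative splicing regulators. Against WT, 0 were called in Cbfb::MYH11 by edgeR (20 passed unadjusted, DESeq2 called 6 higher and 5 lower, limma-voom 1 higher), 1 higher and 1 lower in MLL::AF9, and 1 higher and 1 lower in MLL::ENL. At the unadjusted threshold 35 passed in MLL::AF9 and 33 in MLL::ENL. DESeq2 called 12 higher and 10 lower in MLL::AF9 and 13 higher and 3 lower in MLL::ENL, and limma-voom called 3 higher in MLL::ENL. Of all genes 11.4% were higher and 16% lower unadjusted in Cbfb::MYH11, 12.3% and 12.2% in MLL::AF9, and 10.7% and 11.3% in MLL::ENL. In the same order, edgeR called 3.54%, 0.807% and 0.551% of all genes higher and 6.92%, 2.08% and 1.55% lower. In either direction DESeq2 called 2888, 2124 and 1815 of the 14875 genes, and limma-voom 1581, 713 and 639. The gene called higher by edgeR in both MLL models was Ptbp2, a pyrimidine tract binding protein best known from neurons, at 2.45 and 3.47 CPM in WT, 8.70 and 3.78 in Cbfb::MYH11, 13.9, 16.1 and 10.46 in MLL::AF9 and 17.1, 18.7 and 20.5 in MLL::ENL. Every MLL tumor was above every other library (MLL::AF9 2.18, SE 0.46, edgeR adjusted p = 0.0435, and MLL::ENL 2.66, SE 0.47, edgeR adjusted p = 0.0282). The gene called lower in both was Rbm38, an RNA-binding protein of erythroid and p53 programs, at 371 and 258 CPM in WT, 187 and 124 in Cbfb::MYH11, 106, 101 and 127 in MLL::AF9 and 141, 77.7 and 85.2 in MLL::ENL (-1.50, SE 0.33, edgeR adjusted p = 0.0459, and -1.63, SE 0.33, edgeR adjusted p = 0.0411). Hemoglobin took 14.4% and 3.98% of the WT counts and at most 0.958% in a tumor, and the part of red cell precursors in the Rbm38 difference was not tested. Both calls of Ptbp2 were lost without WT 1, WT 2, MLL::ENL RL or MLL::ENL L, and the one in MLL::AF9 also without any MLL::AF9 library (edgeR adjusted p up to 0.341 and 0.276). Those of Rbm38 were lost without WT 1, WT 2, either Cbfb::MYH11 library, MLL::AF9 42, MLL::ENL RL or MLL::ENL L, and the one in MLL::AF9 also without MLL::AF9 2 or 47 (edgeR adjusted p up to 0.339 and 0.298). The genes with the 3 smallest adjusted p per direction against WT that were not called are given with their log2 fold changes. In Cbfb::MYH11 these were Armc7 (-1.67), Zmat5 (-1.28), Bud31 (-1.09), Gemin8 (1.34), Mbnl1 (1.23) and Scaf1 (0.76), with edgeR adjusted p from 0.0554 to 0.0985. In MLL::AF9 these were Clk1 (1.45), Rbm5 (1.15), Gemin8 (-1.47) and Bcas2 (-0.95), with edgeR adjusted p from 0.0580 to 0.0686, and in MLL::ENL Son (1.42), Clk2 (1.31), Celf1 (-0.76) and Hnrnpc (-0.69), with edgeR adjusted p from 0.0561 to 0.138.

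In MLL tumors against Cbfb::MYH11, 6 of the 146 were called higher (Ptbp2, Srpk2, Clk4, Zmat5, Armc7 and Dhx38) and 6 lower (Gemin8, Gemin5, Strap, Celf1, Rnps1 and Esrp2), where 13.2% of all genes were called higher and 12.4% lower. Of the snRNP assembly factors, which load the Sm ring onto snRNA, 3 of 13 were called and all were lower, beside 12.4% of all genes called lower, and the list itself was not tested. Gemin8, a subunit of the SMN complex, was 9.72 and 6.13 CPM in WT, 18.9 and 21.4 in Cbfb::MYH11, 2.62, 3.24 and 2.67 in MLL::AF9 and 4.64, 4.02 and 5.53 in MLL::ENL (-2.45, SE 0.32, edgeR adjusted p = 0.000627). Of the SR kinases, which phosphorylate SR proteins, Srpk2 was 16.9 and 17.8 CPM in Cbfb::MYH11 and from 32.0 to 77.4 in MLL tumors (1.62, SE 0.34, edgeR adjusted p = 0.00722), and Clk4 was 25.9 and 15.5 CPM against 38.1 to 58.6 (1.18, SE 0.31, edgeR adjusted p = 0.0203). Esrp2 rested on 1 library, Cbfb::MYH11 27, at 9.995 CPM, and was at most 0.670 CPM in the other 9.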

How the data were processed

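RNA was sequenced from 10 mouse samples, 1 library per mouse. Per the labels and the study's methods, tumors were cryopreserved and thawed before RNA extraction, and the submitters' processing notes name FastQC, STAR, RSEM and the build mm10, with versions not given in the sources used here. Whether counting used strand is also not given there. The authors deposited, per gene and library, RSEM expected counts, TPM, FPKM and an abundance-weighted transcript length in bases. FPKM was not used here. Of 50600 entries, 93 repeat a gene ID and were kept as separate entries.

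Expected counts were rounded and tested in R 4.3.3 with edgeR 4.0.16 (TMM, filterByExpr, quasi-likelihood F-test, Benjamini-Hochberg over 14875 genes, threshold 0.05) in 1 fit of the 4 groups with 6 residual degrees of freedom. MLL tumors stand for the mean of the MLL::AF9 and MLL::ENL coefficients. Library totals ran from 12134917 to 20510574 counts, and the median half-width of the members' 95% interval was 0.58 to 0.73 log2 units. Length was tested as log2 with limma 3.58.1 over 8001 genes with at least 10 counts in every library. TPM was used for levels between genes, summed markers, and the direction and overlap of groups and libraries, with no test. Models were tested on simulated data.

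Members named with values were those called, the largest and the most significant of each role and WT comparison, 8 genes known from myeloid mutations or taken up by the study, and for length the called or the 3 smallest p. For other splicing genes the 3 smallest adjusted p per direction against WT were named. Ddx23, Snrpg, Snrpb, Gm16286 and the genes called between tumor types were chosen after their values were seen. Members and lists were chosen with earlier results of these data known. Alternatives were DESeq2 1.42.0, limma-voom, other scalings and filters, only the groups compared, and leaving out libraries. Exon overlaps and isoforms come from GENCODE vM21, which may differ from the annotation behind the deposited counts and lengths. Promoters come from RefSeq, where 37 members matched.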

Additional observations from a re-analysis of the deposited data

Results flagged for a closer look

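These results were listed because the 6 MLL tumors and the 2 Cbfb::MYH11 tumors differed by a test of the difference itself. The 4 calls among the 47 members were a smaller share than the 12.4% of all genes called lower. On the log2 scale the difference was -1.24 for Txnl4a, -0.98 for Sf3b3, -0.93 for Eftud2 and -0.81 for Snrpf (edgeR), and the weighted transcript length of Sf3a2 differed by 0.32 (limma). The calls of Sf3b3, Eftud2 and Snrpf were lost in some alternatives, as given above. The length call of Sf3a2 was lost whenever any single library was left out. No group had 4 or more libraries, so single libraries were not screened.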

How the results depend on the processing

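Counts of called genes moved by more than 1.5 times as follows, with members first. DESeq2 called 2 members higher in Cbfb::MYH11, 5 lower in MLL::AF9, and 1 higher and 2 lower in MLL::ENL against WT, 7 lower in MLL tumors against Cbfb::MYH11 and 9 over the 4 groups. Over all 14875 genes DESeq2 called 2888, 2124 and 1815 against WT and 5075 in MLL tumors against Cbfb::MYH11. Between the MLL models it called 481 genes, and over the 4 groups 5676. Limma-voom and no filter on low counts each called 1 lower in MLL::AF9, upper quartile scaling 1 over the 4 groups, and summing overlapping entries 0 lower in MLL::ENL. Removing the length trend called 9 lower in MLL tumors against Cbfb::MYH11 and 4 over the 4 groups. With that trend removed, 4518 and 3633 of all genes were called in these comparisons, in any direction. Without MLL::AF9 2 and MLL::ENL NO, 1 was higher in Cbfb::MYH11 and 1 was called over the 4 groups. Leaving out single libraries gave 0 to 1 lower in MLL::ENL, 1 to 5 lower in MLL tumors against Cbfb::MYH11, 1 to 3 over the 4 groups and 0 for length.

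By deposited TPM, 47, 38 and 45 members had a higher mean than WT in place of 30, 15 and 22, and all 6 MLL libraries lay below both Cbfb::MYH11 libraries in 4 members and above in 0, in place of 15 and 3.

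For other splicing genes, the order here is Cbfb::MYH11 higher and lower, MLL::AF9 higher and lower, MLL::ENL higher and lower, each against WT. DESeq2 gave 6, 5, 12, 10, 13 and 3, then 10 higher and 12 lower in MLL tumors against Cbfb::MYH11, 1 higher in MLL::AF9 against MLL::ENL and 34 over the 4 groups. The DESeq2 counts over all genes are those given above beside the members. Only the groups compared gave 1, 4, 0, 0, 2 and 0. Without MLL::AF9 2 and MLL::ENL NO the first 5 were 2, 4, 2, 3 and 3. Limma-voom gave 1 higher in Cbfb::MYH11 and 3 higher in MLL::ENL. No filter gave 1 lower in Cbfb::MYH11, 2 higher in MLL::AF9 and 4 higher in MLL::ENL. DESeq2 size factors and upper quartile scaling gave 0 lower in MLL::AF9. Removing the length trend gave 1 higher in Cbfb::MYH11, 0 lower in MLL::AF9, 3 higher and 2 lower in MLL::ENL and 13 lower in MLL tumors. Leaving out single libraries gave 0 to 1, 0 to 2, 0 to 1, 0 to 1, 0 to 2 and 0 to 1, then 0 to 6 higher and 2 to 8 lower in MLL tumors, and 3 to 10 over the 4 groups. The cause of these moves was not tested.

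The length trend, the omission of both libraries and the summed entries were chosen after seeing the data. With 1 library left in a group, it is assumed to vary like the other groups. No paired analysis was possible because each mouse gave 1 library and belonged to 1 group. No called value changed sign. Groups of 2 and 3 libraries limit precision.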
